A study of Drosophila melanogaster with 48 samples.

Results

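The genes described here are p53 and the core cell death genes of Drosophila melanogaster: the death inducers hid, rpr, grim and skl, the inhibitor Diap1, and the caspase machinery Dronc, Drice and Dark. They were chosen by name, with earlier results of these data known, and 8 of the 9 had a row among the 15065 gene IDs of each of the 12 deposited tables. Dark was not analysed here. S2 and S3 are cultured Drosophila cell lines. Cells of each line had been transfected with 2 ug of double-stranded RNA (dsRNA) against Rrp6, Rrp40 or Csl4, or against GFP as the control, and were collected 5 days later. Rrp6 is a nuclear exonuclease that works with the RNA exosome, and Rrp40 and Csl4 are subunits of the exosome's cap. RNA was sequenced after poly(A) selection or after depletion of ribosomal RNA (RiboMinus). Every group, GFP included, had been transfected with dsRNA, so no group is untreated. Rrp6, Rrp40, Csl4 and GFP dsRNA have 2 libraries each in the S3 RiboMinus set. In the S3 poly(A) set they have 2, 2, 2 and 3 libraries, in the S2 poly(A) set 2, 1, 2 and 2, and in the S2 RiboMinus set 1 each.

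In flies, p53 is a transcription factor that is activated after DNA damage by the checkpoint kinase encoded by lok. It is known for switching on the death genes hid, rpr and skl together with DNA repair genes. The products of hid, rpr, grim and skl bind Diap1, an inhibitor that otherwise holds caspases in check. Released Dronc, an initiator caspase, works with the adaptor Dark to activate effector caspases such as Drice.

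Levels are given as CPM, reads relative to the library's total of gene reads with TMM scaling within 1 line and fraction, so levels of different lines or fractions were scaled apart. Libraries fell into a deeper class, with 3055056 to 69426568 gene reads, and a shallower class, with 67743 to 1457393, and the class was a term of every fit. Changes are log2 ratios to GFP dsRNA with their standard error from edgeR's quasi-likelihood test, adjusted over all genes tested, and a gene is called at an adjusted p of at most 0.05. The labels number the libraries as biological replicates but do not say whether these were separate transfections, so the p-values measure only the spread between these samples. Reads of the targeted gene do not show its depletion: its mean was higher with its own dsRNA in 12 of 12 sets, with libraries from 44.5 to 354944 CPM, against 0 to 284 CPM with GFP dsRNA. Libraries are therefore named by the dsRNA on their label. Of the hemocyte markers, which S2 cells are known for, srp, Hml, Pxn, ush and Col4a1 were detected in both GFP S2 poly(A) libraries, while He had 34 and 0 reads and NimC1 had 5 and 0. srp, Hml, Pxn, ush and Col4a1 were also detected in every GFP S3 poly(A) library, so their detection does not set S2 cells apart. In bulk RNA, fewer cells of a kind and less RNA per cell cannot be told apart.

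With Rrp6 dsRNA, p53 and hid rose in all 3 sets that could be tested, and rpr, Diap1 and Dronc rose in 1 or 2 of them. Of the tested members 3 of 5 rose in the S3 RiboMinus set, where 12.4% of all tested genes rose and 7.35% fell. The S3 poly(A) set had 4 of 5 higher, where 19.7% of genes rose and 16.4% fell. The S2 poly(A) set had 3 of 6 higher, where 20.2% rose and 16.9% fell, and no tested member fell in any of the 3 sets. The median log2 change of the tested members was 1.46, 1.10 and 0.80 in these sets, in the order given, beside medians of 0.07, 0.01 and -0.05 over all genes. Members had to pass a filter on low reads, so the counts leave out grim, skl and, in S3 cells, rpr. In both S3 sets hid passed that filter only through its Rrp6 libraries, so its place in the S3 counts and medians depends on the rise itself. The S3 medians are therefore descriptive, and their distance from the medians over all genes was not tested.

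**Figure D1:**
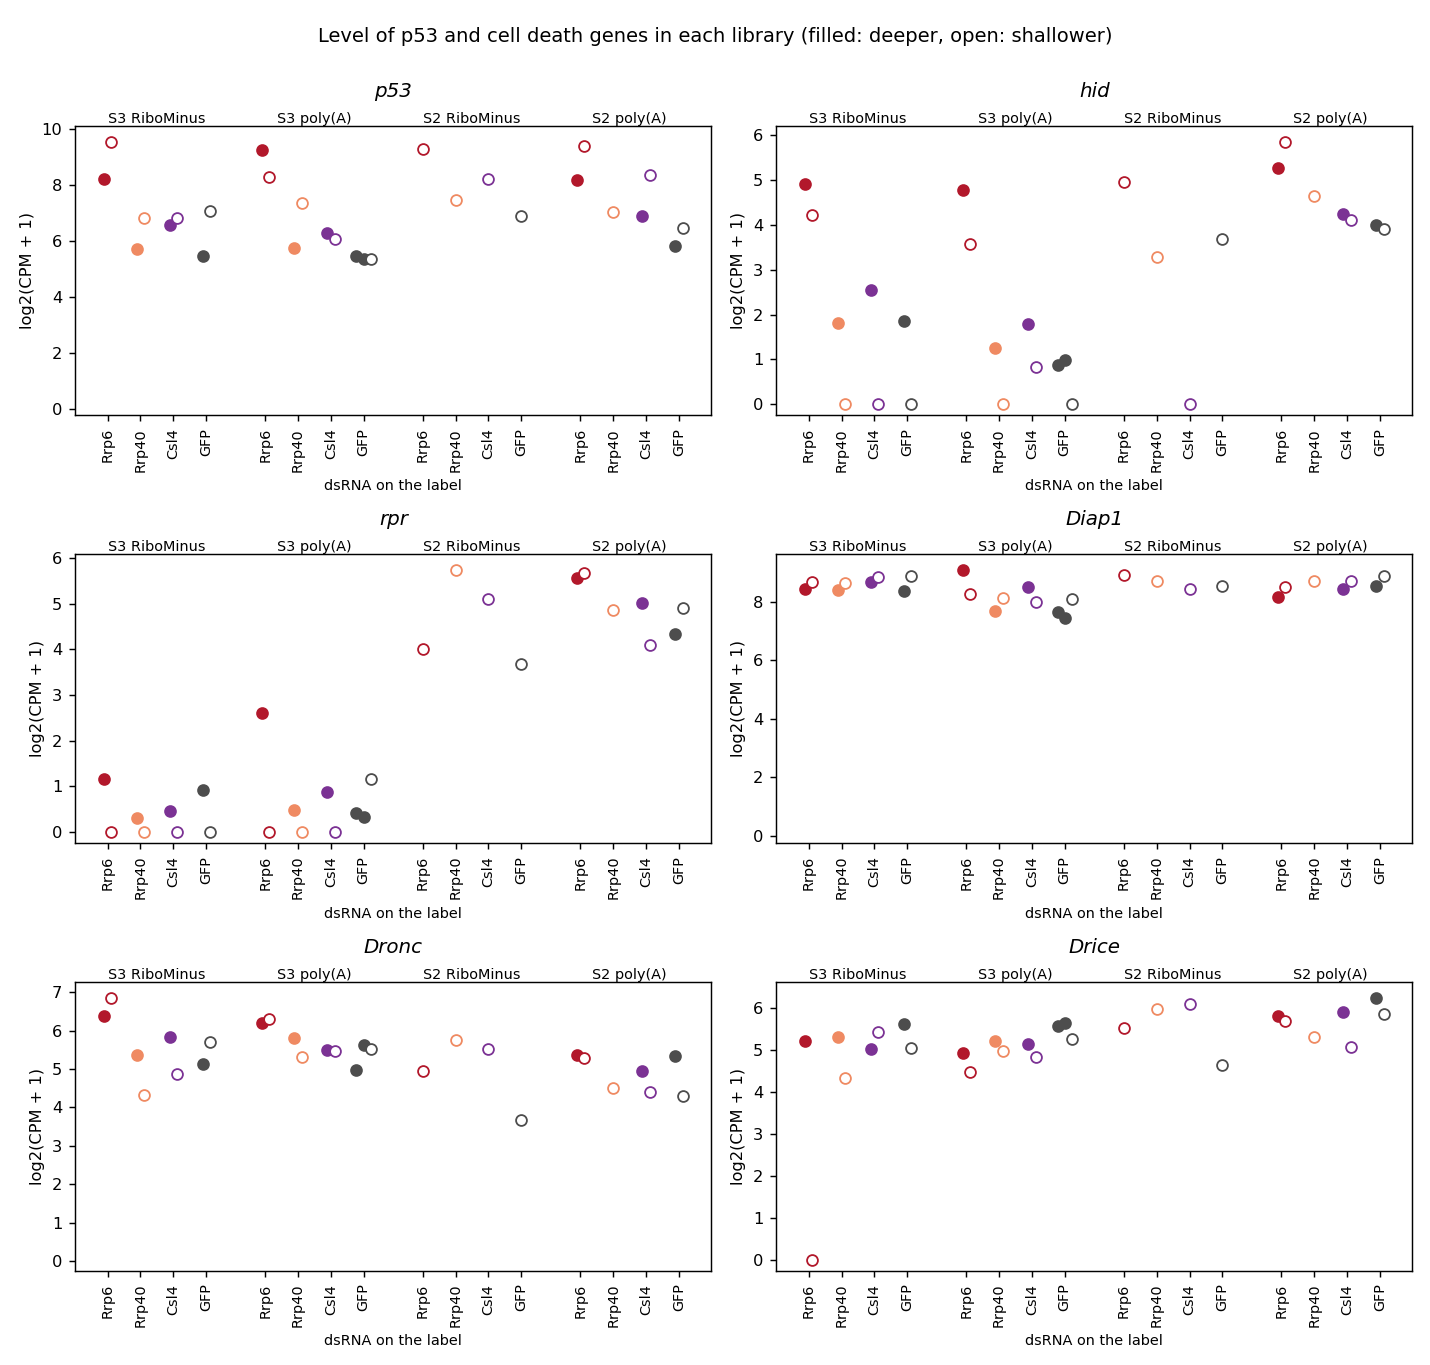
Level of 6 members in every library, as log2(CPM + 1), by the dsRNA on the label within each line and RNA fraction; filled points are deeper libraries and open points shallower ones. p53 in all sets and hid in the poly(A) sets have every Rrp6 library above the GFP libraries, while Diap1 with Rrp6 dsRNA lies above GFP in S3 poly(A) RNA and below it in S2 poly(A) RNA.

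p53 rose with Rrp6 dsRNA in every set that could be tested. Its S3 RiboMinus levels were 296 and 743 CPM in the deeper and the shallower Rrp6 library, against 43.4 and 134 CPM in the GFP libraries. Its S3 poly(A) levels were 607 and 313 CPM with Rrp6 dsRNA, against 43.1, 39.7 and 39.7 CPM in GFP replicates 1, 2 and 3. Its S2 poly(A) levels were 293 and 671 CPM with Rrp6 dsRNA, against 55.4 and 87.1 CPM in GFP replicates 1 and 3. Rrp6 and GFP libraries did not overlap in any set, and the Rrp6 library was the highest of all libraries in each of the 7 combinations of line, fraction and depth class. The log2 changes were 2.81 ± 0.32, 3.60 ± 0.46 and 2.70 ± 0.23 (edgeR adjusted p 9.77e-16, 0.000596 and 1.64e-08). In the S3 RiboMinus fit each gene's own spread was replaced by one shared between genes. Its prior degrees of freedom were infinite, against 6.09 in the S3 poly(A) and 20.4 in the S2 poly(A) fit. The S3 RiboMinus p-values of all genes are therefore not to be ranked beside those of the poly(A) sets. The ratio to GFP ran from 5.28-fold in the deeper S2 poly(A) pair to 15.3-fold in a deeper S3 poly(A) pair. Leaving out any 1 library kept each of these 3 calls, with log2 changes from 2.26 to 3.89.

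The single S2 RiboMinus libraries allow no test. There p53 had 42 reads, or 630 CPM (exact 95% Poisson interval 454 to 851), with Rrp6 dsRNA. It had 176 CPM (107 to 272) with Rrp40, 301 CPM (198 to 438) with Csl4 and 118 CPM (56.8 to 218) with GFP dsRNA. The Rrp6 interval lies above the other 3, and these intervals cover counting error only. Diap1 had 480, 413, 346 and 367 CPM with Rrp6, Rrp40, Csl4 and GFP dsRNA, with overlapping intervals, and the remaining members had at most 7 reads in any of these libraries.

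hid, which encodes a mitochondria-associated antagonist of Diap1, rose in the same 3 sets, from GFP levels that differed widely between the lines. Its S3 RiboMinus reads were 212 and 2 with Rrp6 dsRNA, or 29 and 17.7 CPM, against 15 and 0 reads, or 2.64 and 0 CPM, with GFP dsRNA. The 0 of the shallower GFP library allows up to 19.2 CPM, so only the deeper pair shows the difference, an 11-fold one. Its S3 poly(A) reads were 188 and 12 with Rrp6 dsRNA, or 26.4 and 10.9 CPM, against 5, 67 and 0 reads, or 0.835, 0.983 and 0 CPM, with GFP dsRNA. The deeper Rrp6 library was 31.6-fold and 26.9-fold above the 2 deeper GFP libraries, and the shallower one was at least 2.94-fold higher than its GFP counterpart, counted at the 3 reads that a 0 allows. Its S2 poly(A) levels were 37.3 and 56.4 CPM with Rrp6 dsRNA, against 15 and 13.9 CPM with GFP dsRNA. Rrp6 and GFP libraries did not overlap in the poly(A) sets, while in the shallower S3 RiboMinus pair the limit of the GFP library lies above the Rrp6 level. The log2 changes were 3.76 ± 0.78, 5.11 ± 0.53 and 1.63 ± 0.31 (edgeR adjusted p 4.62e-05, 0.000241 and 0.00033). In S3 poly(A) RNA only the Rrp6 libraries reached the level that the filter on low reads asks for. In S3 RiboMinus RNA only those and the deeper Csl4 library did. hid thus entered both S3 tests through the group where it was high. Its S3 p-values, here and in the contrasts below, are therefore descriptive. The call held without any 1 library in both poly(A) sets. In the S3 RiboMinus set it held in the 4 fits that could test hid, while leaving out any of the 4 deeper libraries left too few reads for a test.

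rpr, whose product also binds Diap1, had enough reads for a test in S2 cells only. Its S2 poly(A) levels were 46.4 and 50 CPM with Rrp6 dsRNA, against 19.3 and 29 CPM with GFP dsRNA, without overlap, and it rose by 1.18 ± 0.31 on the log2 scale (edgeR adjusted p 0.00478). That call ended when GFP replicate 1 was left out (0.63, edgeR adjusted p 0.345), and also when the deeper Rrp6 library was (1.3, edgeR adjusted p 0.085). Its S3 poly(A) reads were 36 and 0 with Rrp6 dsRNA, against 2, 17 and 1 with GFP dsRNA. The deeper Rrp6 library stood at 5.06 CPM, above all GFP libraries, and the shallower one was at 0, which allows up to 2.74 CPM. No S3 RiboMinus library had more than 9 reads of rpr.

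The other inducers were at or near 0. grim had 3 reads over all 28 libraries, each in a different library, and skl had 14 reads in 6 libraries with at most 6 in one. The 4 inducer genes stand close together on chromosome arm 3L in the Release 6 annotation, with 15 annotated genes between hid and skl, grim and rpr among them. Of the 13 others 4 had a row in the tables, with 3 to 42 reads over all libraries, and none had enough for a test. Among the genes of that stretch with a row, hid and rpr were thus the only ones tested.

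Diap1, the ubiquitin ligase that restrains Dronc and Drice, rose in 1 of the 3 sets. Its S3 poly(A) levels were 539 and 306 CPM with Rrp6 dsRNA, against 197, 171 and 273 CPM with GFP dsRNA, a log2 change of 1.10 ± 0.34 (edgeR adjusted p 0.0311). The groups did not overlap, but leaving out the deeper Rrp6 library (0.43), GFP replicate 1 (1.08) or GFP replicate 2 (0.93) ended the call (edgeR adjusted p 0.461, 0.105 and 0.112). Its S3 RiboMinus levels overlapped, with 340 and 407 CPM with Rrp6 dsRNA and 326 and 467 CPM with GFP dsRNA, and the change of 0.07 had a 95% interval of -0.48 to 0.61. Its S2 poly(A) levels with Rrp6 dsRNA, 287 and 360 CPM, lay below the 371 and 465 CPM with GFP dsRNA, a change of -0.30 with an interval of -0.68 to 0.09.

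Dronc, the initiator caspase, rose in both S3 sets. Its S3 RiboMinus levels were 82.7 and 115 CPM with Rrp6 dsRNA, against 33.9 and 51.1 CPM with GFP dsRNA (1.46 ± 0.39, edgeR adjusted p 0.00213). Its S3 poly(A) levels were 72.1 and 78.4 CPM with Rrp6 dsRNA, against 30.6, 48.7 and 44.7 CPM with GFP dsRNA (0.98 ± 0.24, edgeR adjusted p 0.0122). The groups did not overlap in either set. The S2 poly(A) levels did overlap, at 40.3 and 38.4 CPM with Rrp6 dsRNA and 39.5 and 18.6 CPM with GFP dsRNA (0.41 ± 0.29, edgeR adjusted p 0.276). The S3 RiboMinus call ended with DESeq2 (1.45, adjusted p 0.0706) and when either deeper library of this pair was left out (1.88 for Rrp6, 0.64 for GFP). The S3 poly(A) call ended when GFP replicate 1 (0.83) or either Rrp6 library (1.03 for the deeper, 0.71 for the shallower) was left out.

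Drice, the effector caspase, was not called in any set. Its S3 poly(A) levels were 29.4 and 21 CPM with Rrp6 dsRNA, all below the 46.6, 48.9 and 37.2 CPM with GFP dsRNA (-0.64 ± 0.24, edgeR adjusted p 0.0578). That change passed the threshold when the shallower library of Rrp6 or of Rrp40 was left out (-0.79 and -0.84, edgeR adjusted p 0.0308 and 0.0252). Its S3 RiboMinus levels were 35.9 and 0 CPM with Rrp6 dsRNA, against 48.1 and 32 CPM with GFP dsRNA. The shallower libraries there had 0 reads with Rrp6 and 5 with GFP dsRNA, and the 0 allows up to 26.5 CPM. Levels of Drice in S2 poly(A) RNA were 54.7 and 50 CPM with Rrp6 dsRNA, below the 74.5 and 56.9 CPM with GFP dsRNA.

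**Figure D2:**
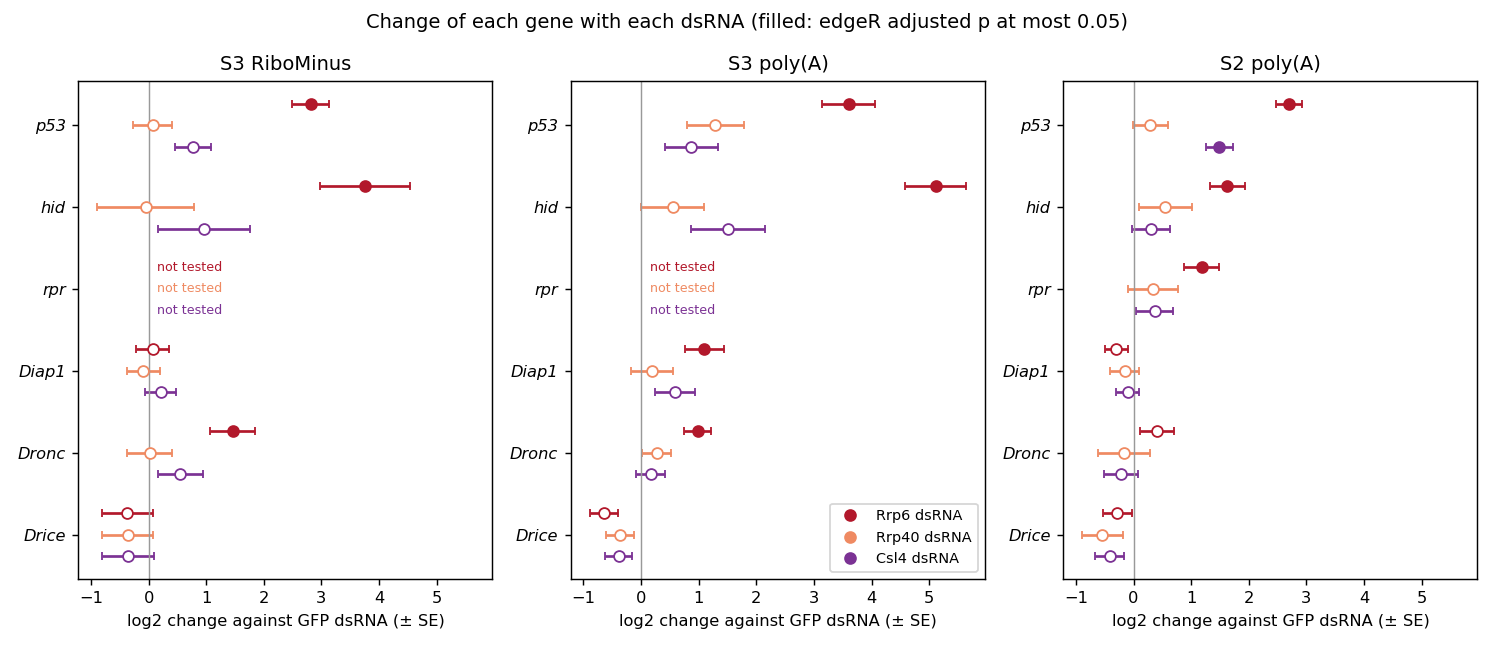
Log2 change ± SE of each member against GFP dsRNA in the 3 sets with a test, from the edgeR fits; filled points are called. The points of p53 and hid with Rrp6 dsRNA lie between 1.63 and 5.11, and with Rrp40 and Csl4 dsRNA 1 point is called, p53 with Csl4 dsRNA in S2 poly(A) RNA.

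Reads of p53 and hid were also set against Diap1 reads of the same library, a ratio that no scaling factor enters. The S3 poly(A) libraries with Rrp6 dsRNA had 1126 and 1021 p53 reads per 1000 Diap1 reads, against 218, 233 and 145 with GFP dsRNA. The S2 poly(A) libraries with Rrp6 dsRNA had 1022 and 1865, against 149 and 188 with GFP dsRNA. For hid the ratio was 49 and 35.7 per 1000 in S3 poly(A) libraries with Rrp6 dsRNA, against 4.23, 5.76 and 0 with GFP dsRNA. The S2 poly(A) ratio of hid was 130 and 157 with Rrp6 dsRNA, against 40.4 and 30 with GFP dsRNA. In both lines the groups did not overlap. The ratio shows unequal change and does not show that Diap1 stayed level.

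**Figure D3:**
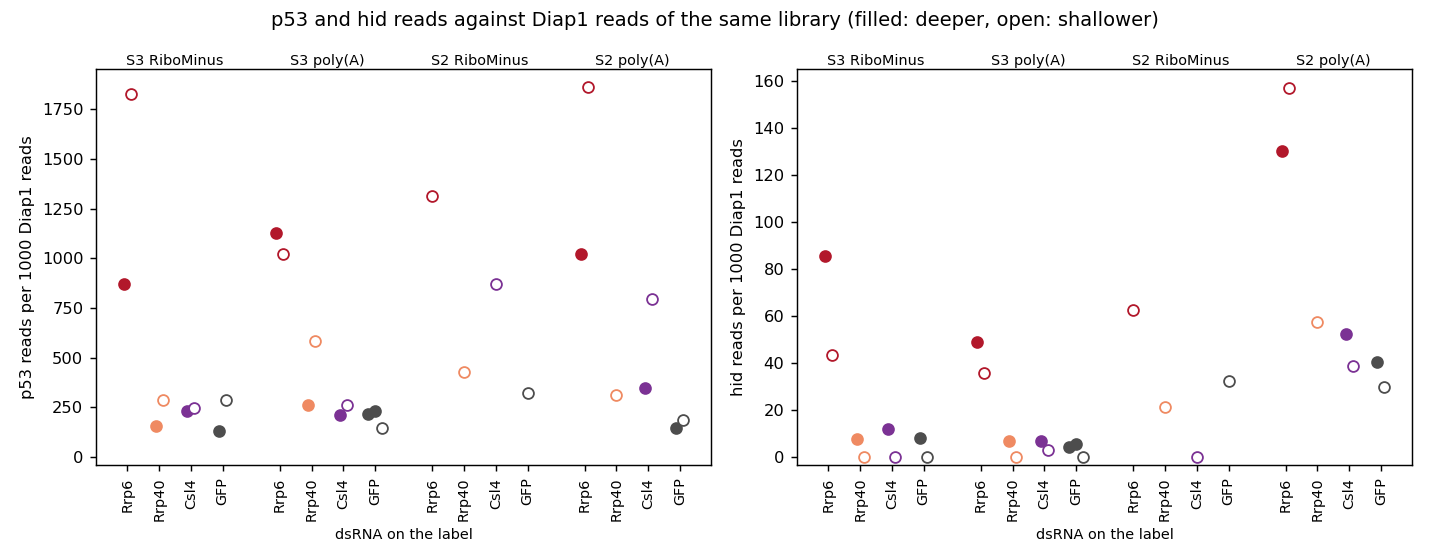
p53 reads (left) and hid reads (right) per 1000 Diap1 reads of the same library, by the dsRNA on the label; filled points are deeper libraries and open points shallower ones. With Rrp6 dsRNA p53 runs from 870 to 1865 and hid from 35.7 to 157, and the highest p53 ratio in any other library is 871, from 27 reads of p53 with Csl4 dsRNA in S2 RiboMinus RNA.

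Csl4 and Rrp40 dsRNA gave few calls among these genes. With Csl4 dsRNA p53 rose in S2 poly(A) RNA, to 119 and 332 CPM against 55.4 and 87.1 CPM with GFP dsRNA, without overlap (1.49 ± 0.23, edgeR adjusted p 0.000434). It was the only one of 6 tested members called there, where 1.82% of genes rose and 0.139% fell. None of 5 members was called with Csl4 dsRNA in the S3 poly(A) set, where 0.227% of genes rose and 0.0126% fell, or in the S3 RiboMinus set, where 1.69% rose and 0.471% fell. hid with Csl4 dsRNA had 9 and 1 reads in S3 poly(A) RNA, or 2.46 and 0.767 CPM, and its change of 1.51 ± 0.64 was not called (edgeR adjusted p 0.433).

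With Rrp40 dsRNA no tested member was called in the S3 RiboMinus set, where 0.193% of genes rose and 0.0241% fell, in the S3 poly(A) set, where 0% rose and 0% fell, or in the S2 poly(A) set, where 0.101% rose and 0% fell. The edgeR fit of the S3 poly(A) set had 437 genes at an unadjusted p under 0.05 with Rrp40 dsRNA, and DESeq2 called 50. p53 was split there between the Rrp40 libraries, with 53.4 CPM in the deeper and 162 CPM in the shallower one, against 43.1, 39.7 and 39.7 CPM with GFP dsRNA (1.29 ± 0.49, edgeR adjusted p 0.783). Both Rrp40 libraries lay above all GFP libraries. The change ran from 0.24 to 2.37 over the fits without 1 library.

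Rrp6 libraries were also compared with those of the other dsRNAs, in contrasts that hold no GFP library. p53 and hid were higher with Rrp6 than with Csl4 dsRNA in all 3 sets. For p53 the log2 differences were 2.04 ± 0.30, 2.74 ± 0.52 and 1.20 ± 0.22 in the S3 RiboMinus, S3 poly(A) and S2 poly(A) sets (edgeR adjusted p 8.64e-09, 0.013 and 0.000935). For hid they were 2.80 ± 0.72, 3.60 ± 0.61 and 1.32 ± 0.32 (edgeR adjusted p 0.00789, 0.0108 and 0.00773). These were the only members called, 2 of 5, 2 of 5 and 2 of 6, where 2.46%, 14.6% and 13.4% of all genes differed. Both S3 counts include hid, which passed the filter on low reads there only through its high Rrp6 libraries. Its place in them is thus descriptive. The S3 poly(A) differences of both genes lost their call when either Csl4 library or the deeper Rrp6 library was left out, with p53 at 1.81 to 2.93 and hid at 3.51 to 4.32. The S2 poly(A) difference of p53 lost it without the deeper Csl4 library (0.95). That of hid lost it without the deeper Csl4 library (1.69), the shallower Csl4 library (1.16) or the deeper Rrp6 library (1.82), and in the S3 RiboMinus set without the shallower Csl4 library (2.75).

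Against Rrp40 dsRNA, p53 was higher with Rrp6 dsRNA in all 3 sets (2.74 ± 0.32, 2.31 ± 0.54 and 2.40 ± 0.31; edgeR adjusted p 1.52e-14, 0.0136 and 3.4e-05). The S2 poly(A) value sets 1 Rrp40 library against 2 Rrp6 libraries, and its error assumes that the lone library varies like the other groups. hid was higher in both S3 sets (3.81 ± 0.77 and 4.56 ± 0.64; edgeR adjusted p 5.72e-05 and 0.00287) and missed the threshold in S2 poly(A) RNA (1.08 ± 0.43, edgeR adjusted p 0.11). Dronc was higher in the S3 RiboMinus set (1.44 ± 0.38, edgeR adjusted p 0.00402). That makes 3 of 5, 2 of 5 and 1 of 6 members, where 10.4%, 26.1% and 11.2% of genes differed. Here too both S3 counts include hid, whose place in them depends on its high Rrp6 libraries. In the S3 poly(A) set p53 lost its call without the deeper Rrp40 library (1.25) or the deeper Rrp6 library (1.54), and hid without the deeper Rrp40 library (9.98), where the remaining Rrp40 library has 0 reads. Dronc lost it without the deeper Rrp40 library (2.36), the shallower one (1.21) or the deeper Rrp6 library (1.93).

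The lines were compared in a joint fit of the poly(A) libraries with a common scaling, while the CPM below were scaled within each line. With GFP dsRNA, hid, rpr and Diap1 were lower in S3 than in S2 cells. The fit called these 3 of 6 members, where 35.5% of all genes differed. Of the GFP libraries, only those of S2 cells reached the level that the filter on low reads asks for in hid and rpr. The levels of hid and rpr are therefore given as a description with no test. Of the called members, Diap1 alone is left to set beside the share of all genes. hid had 0.835, 0.983 and 0 CPM in S3 and 15 and 13.9 CPM in S2 cells. rpr had 0.334, 0.249 and 1.24 CPM, from 2, 17 and 1 reads, in S3 and 19.3 and 29 CPM in S2 cells. No line overlapped the other for either gene. Diap1 differed by -0.81 ± 0.28 (edgeR adjusted p 0.034), a call that ended in 8 of the 16 fits without 1 library. p53 was not called (-0.62 ± 0.39, 95% interval -1.39 to 0.14).

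The response to Rrp6 dsRNA itself differed between the lines for hid. It was larger in S3 than in S2 poly(A) RNA by 3.30 ± 0.58 on the log2 scale (edgeR adjusted p 0.0075), the only called member of 6, where 2.64% of all genes differed. With Rrp6 dsRNA hid stood at 26.4 and 10.9 CPM in S3 and at 37.3 and 56.4 CPM in S2 cells. Leaving out the deeper S3 Rrp6 library (4.21), the deeper S2 Rrp6 library (2.90) or GFP replicate 1 of S2 cells (3.06) ended the call (edgeR adjusted p 0.09, 0.116 and 0.102). For p53 the responses differed by 0.88 ± 0.55 (edgeR adjusted p 0.507), and the fits without 1 library ran from -0.03 to 1.31. Diap1 missed the threshold (1.4 ± 0.42, edgeR adjusted p 0.0977). No member's response to Csl4 dsRNA was called different between the lines, beside 0% of all genes, and that of p53 differed by -0.68 ± 0.57.

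The fractions were compared in S3 cells in the same way. No member's response to Rrp6, Rrp40 or Csl4 dsRNA was called different between RiboMinus and poly(A) RNA, beside 0%, 0.0344% and 0% of all genes. For Rrp6 dsRNA the differences, RiboMinus minus poly(A), were -0.90 ± 0.60 for p53, -1.36 ± 0.90 for hid and -1.13 ± 0.46 for Diap1, and 0.41 ± 0.49 for Dronc and 0.18 ± 0.54 for Drice. For p53, hid and Diap1 the unadjusted 95% intervals reach from -2.07 to 0.28, from -3.12 to 0.41 and from -2.04 to -0.23.

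Genes linked to p53 and DNA damage were taken from a list of 15, all with a row. With Rrp6 dsRNA 6 of 15 tested rose and 1 fell in the S3 RiboMinus set, 7 of 15 rose and 1 fell in the S3 poly(A) set, and 7 of 14 rose and 3 fell in the S2 poly(A) set. Of all genes 12.4%, 19.7% and 20.2% rose and 7.35%, 16.4% and 16.9% fell in these sets. The medians were 0.70, 0.75 and 0.56, beside the medians of all genes given above. Among those that rose in each of the 3 sets were Ku80 and Irbp, the subunits of the end-joining Ku complex, and rad50 and nbs, of the Mre11 complex that handles double-strand breaks.

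Ku80 had 171 and 100 CPM in S3 poly(A) libraries with Rrp6 dsRNA, against 47.1, 49.6 and 48.4 CPM with GFP dsRNA (1.66 ± 0.24, edgeR adjusted p 0.000954). Ku80 in S2 poly(A) RNA stood at 157 and 187 CPM with Rrp6 dsRNA, against 53.2 and 58.1 CPM with GFP dsRNA (1.70 ± 0.24, edgeR adjusted p 9.36e-06), without overlap in either line. rad50 changed by 1.63 ± 0.31, 1.59 ± 0.25 and 1.57 ± 0.23 in the 3 sets (edgeR adjusted p 5.95e-06, 0.00154 and 1.55e-05). nbs changed by 1.97 ± 0.40, 1.22 ± 0.29 and 1.52 ± 0.23 (edgeR adjusted p 2.13e-05, 0.0091 and 3.2e-05). Irbp changed by 1.3 ± 0.33, 1.8 ± 0.23 and 1.43 ± 0.24 (edgeR adjusted p 0.000974, 0.00062 and 9.35e-05).

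Gadd45, a stress response gene, had 954 and 192 CPM with Rrp6 dsRNA in S3 poly(A) RNA, against 38.1, 45.3 and 54.6 CPM with GFP dsRNA (3.77 ± 0.56, edgeR adjusted p 0.00115). Its Rrp6 libraries stood far apart there, both above GFP. It rose by 1.70 ± 0.43 in the S3 RiboMinus and 1.87 ± 0.26 in the S2 poly(A) set (edgeR adjusted p 0.00108 and 9.69e-06).

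The kinase gene upstream of p53 went the other way, an observation chosen after its values were seen. lok, which encodes the checkpoint kinase Chk2, had 14.5 and 31 CPM in S3 poly(A) libraries with Rrp6 dsRNA, against 57.6, 54.7 and 45.9 CPM with GFP dsRNA. Its S2 poly(A) levels were 25.1 and 33.3 CPM with Rrp6 dsRNA, against 61.7 and 88.3 CPM with GFP dsRNA. The groups did not overlap, and lok fell in all 3 sets (-1.29 ± 0.44, -1.33 ± 0.33 and -1.27 ± 0.25; edgeR adjusted p 0.0209, 0.0123 and 0.00039). With Csl4 dsRNA, nbs rose in S2 poly(A) RNA (0.94 ± 0.24, edgeR adjusted p 0.0383) and Irbp in the S3 RiboMinus set (1.07 ± 0.32, edgeR adjusted p 0.0456), and no gene of this list was called with Rrp40 dsRNA.

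Of 21 other cell death genes 19 had a row. With Rrp6 dsRNA 1 of 15 tested rose and none fell in the S3 RiboMinus set, 2 rose and 2 fell in the S3 poly(A) set, and 2 of 15 rose and 2 fell in the S2 poly(A) set, with medians of -0.12, 0.07 and -0.17. Set beside the 12.4%, 19.7% and 20.2% of all genes that rose and the 7.35%, 16.4% and 16.9% that fell, these counts do not stand above the background. dnr1, which encodes an inhibitor of caspase activation, rose in each set (2.83 ± 0.67, 4.20 ± 0.41 and 2.76 ± 0.48; edgeR adjusted p 0.00043, 0.000176 and 0.000118). It had 41.5 and 21 CPM in S3 poly(A) libraries with Rrp6 dsRNA, against 2.34, 2.05 and 2.48 CPM with GFP dsRNA. Decay, an effector caspase gene, had 29 and 13 reads in S2 poly(A) libraries with Rrp6 dsRNA, against 3 and 1 with GFP dsRNA (3.73 ± 0.84, edgeR adjusted p 0.00145), so it rests on few reads.

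The remaining calls were split in direction. Drep1, which encodes a protein of the caspase-activated nuclease system, rose in S3 poly(A) RNA (1.85 ± 0.41, edgeR adjusted p 0.00749), and eIF3m and Cyt-c-d fell there (-1.12 ± 0.23 and -1.49 ± 0.52, edgeR adjusted p 0.00533 and 0.0468). The effector caspase gene Dcp-1 and the TNF receptor gene wgn fell in S2 poly(A) RNA (-0.83 ± 0.31 and -0.71 ± 0.27, edgeR adjusted p 0.0425 and 0.041). None of these genes was called with Rrp40 or Csl4 dsRNA. The hemocyte markers were split too. With Rrp6 dsRNA none of 5 tested was called in the S3 RiboMinus set, 1 of 5 rose and 1 fell in the S3 poly(A) set, and 1 of 6 rose and 1 fell in the S2 poly(A) set. Pxn fell in both poly(A) sets (-1.24 ± 0.35 in S3 and -1.19 ± 0.23 in S2 cells, edgeR adjusted p 0.0211 and 0.000317), while ush rose in S3 poly(A) RNA (1.37 ± 0.27, edgeR adjusted p 0.00435) and Col4a1 in S2 poly(A) RNA (0.53 ± 0.20, edgeR adjusted p 0.0435). srp, a transcription factor gene of hemocytes, was not called in S3 poly(A) RNA (0.08 ± 0.23). The summed level of the 7 markers in S3 poly(A) libraries was 1772 and 2229 CPM with Rrp6 dsRNA, below the 3485, 3848 and 2724 CPM with GFP dsRNA. Pxn alone made up 756 and 1351 CPM of these sums with Rrp6 dsRNA and 2718, 2852 and 2118 CPM with GFP dsRNA. The sums overlapped in the S3 RiboMinus set, at 3768 and 2124 CPM with Rrp6 dsRNA and 6368 and 2033 CPM with GFP dsRNA, and in the S2 poly(A) set, at 2833 and 2331 CPM with Rrp6 dsRNA and 2519 and 2158 CPM with GFP dsRNA. The part of cell makeup in the changes of the members was not tested.

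**Figure D4:**
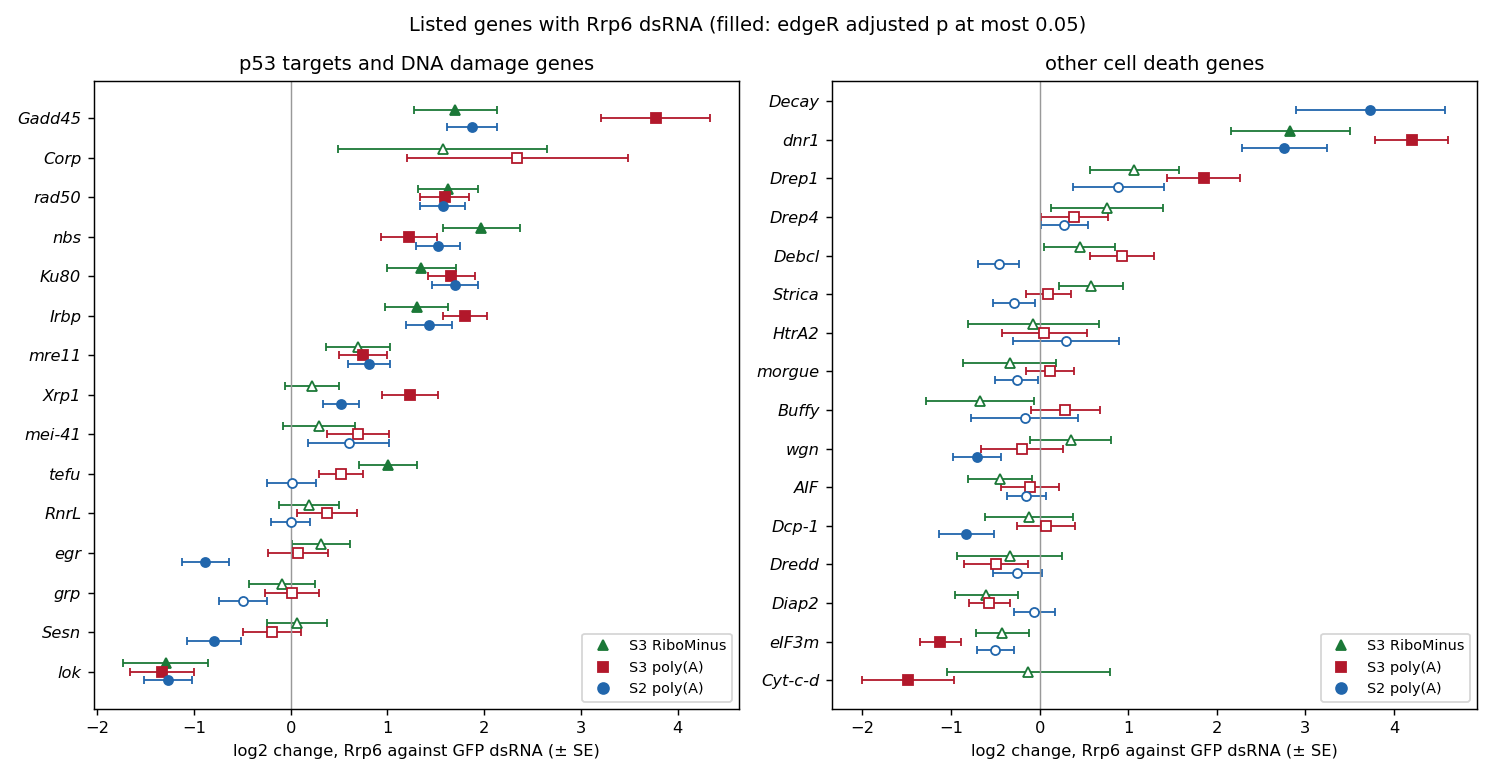
Log2 change ± SE with Rrp6 dsRNA of the genes linked to p53 and DNA damage (left) and of the other cell death genes (right) in the 3 sets with a test; filled points are called. Gadd45, rad50, nbs, Ku80 and Irbp are filled on the right of 0 and lok on the left in all 3 sets, while among the other cell death genes dnr1 alone is filled in all 3.

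The genes most like p53 were sought by the mean absolute difference in log2 change over the 9 comparisons with GFP dsRNA, among 7162 genes tested in all of them. They were wfs1, Shrm, cv-2, CG12177 and vri, with differences of 0.258, 0.341, 0.35, 0.355 and 0.36. For hid they were Mmp1, CG7142, in, pyr and the unnamed FBgn0011241, with 0.305 to 0.409. wfs1 had Rrp6 changes of 2.37, 3.11 and 2.53 in the 3 sets, and Mmp1 had 2.84, 4.66 and 1.41. The 3 comparisons of a set share their GFP libraries.

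The authors' own DESeq test passed fewer members. In the authors' deposited tables for Rrp6 dsRNA, p53 and hid passed in S3 poly(A) RNA (adjusted p 0.000736 and 0.00589) and p53 in S3 RiboMinus RNA (0.034), where 2.45% and 2.8% of genes passed. The authors' deposited table for Rrp6 dsRNA in S2 poly(A) RNA passed no member, with an adjusted p of 0.198 for p53, and 0.462% of genes. The remaining call is hid with Rrp40 dsRNA in S3 poly(A) RNA. The authors' deposited table gives it means of 3.97 with Rrp40 and 2.74 with GFP dsRNA and an adjusted p of 2.76e-07, where 1.73% of genes passed. The recovered reads behind these means are 78 and 0 with Rrp40 and 67 and 0 with GFP dsRNA, and edgeR gave hid there 0.55 ± 0.55. No member passed in the authors' deposited tables for Csl4 dsRNA, where 0.436%, 0.00944%, 0.0131% and 0.0164% of genes did in S3 RiboMinus, S3 poly(A), S2 RiboMinus and S2 poly(A) RNA. None passed in the authors' deposited tables for Rrp40 dsRNA in S3 RiboMinus, S2 RiboMinus and S2 poly(A) RNA (0.204%, 0.0258% and 0.0722% of genes) or for Rrp6 dsRNA in S2 RiboMinus RNA (0%).

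Most of the calls above rest on the depth term. Without it edgeR called 0 of 5 members with Rrp6 dsRNA in the S3 RiboMinus set, 3 of 5 in the S3 poly(A) set and 0 of 6 in the S2 poly(A) set. p53 was then at 2.70 and hid at 3.63 in the S3 RiboMinus set (edgeR adjusted p 0.181 and 0.248), and at 2.85 and 1.75 in the S2 poly(A) set (edgeR adjusted p 0.143 and 0.136). Over all genes the fits without the term called 15, 1076 and 9 genes, against 1636, 2859 and 2933 with it. p53 with Csl4 dsRNA in S2 poly(A) RNA was likewise not called without it (1.69, edgeR adjusted p 1), nor was the difference of hid between the lines (2.82, edgeR adjusted p 0.516).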

How the data were processed

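The 34 RNA samples, technical repeats joined, make 28 libraries. The submitters' processing notes name CASAVA 1.8, cutadapt 1.0, Bowtie 0.12.7, TopHat 1.4.1, HTSeq 0.5.3p9, DESeq 1.9.11 and the dm3 build. Deposited signal columns hold group means of reads over DESeq size factors, except that the means for Csl4 dsRNA in S2 RiboMinus RNA equal raw counts as deposited. The ratio (fold) and log2 columns are the authors' changes, and the p-value columns hold p-values of the authors' DESeq test, per the file headers. From these means the whole reads of every library were recovered for all 15065 gene IDs. Size factors recomputed from them differed by at most 0.02%. Of the IDs 14085 matched a symbol. The 5 HTSeq summary rows, 80.3 to 91.9% of the mean total, stayed out. Knockdown libraries could be told apart as deeper or shallower, not by replicate number.

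edgeR 4.0.16 (R 4.3.3; TMM, filterByExpr, quasi-likelihood, Benjamini-Hochberg) was run per line and fraction with knockdown and depth class, and jointly for differences between lines and fractions. S2 poly(A) has a single Rrp40 library, taken as shallower, whose SE borrows the spread of the other groups. The SE is the log2 change over the root of F. Labels share replicate numbers between groups, and libraries of the same depth class deviated together (correlations 0.249 to 0.681), so the class serves as the replicate block. In S3 poly(A) RNA it is not the replicate itself, since its deeper class joins GFP replicates 1 and 2 and the Rrp40 numbers are 2 and 3 where those of Rrp6 and Csl4 are 1 and 3. Numbers of calls under both designs were known when it was chosen. The fits were also run on simulated data that held no effect of the depth class, so that run does not bear on the depth term. A count of 0 allows up to 3 reads. Alternatives were DESeq2 1.42.0, no block, RLE scaling, no filter, a knockdown's own libraries and leaving out each library. Named genes are all members, per list the 4 called genes with the largest change in a comparison, and the 5 genes most like p53 and hid. With Rrp6 dsRNA, Irbp in S3 RiboMinus and S2 poly(A) RNA and nbs in S3 poly(A) RNA were added after their values were seen. So were srp and lok. The members and lists were chosen with earlier results of these data known. The 6 peak lists were not used here.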

Additional observations from a re-analysis of the deposited data

Results flagged for a closer look

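The response of hid to Rrp6 dsRNA in poly(A) RNA was larger in S3 than in S2 cells by 3.30 ± 0.58 on the log2 scale (edgeR interaction term, adjusted p 0.0075), and this tested difference between the lines is why it is listed. hid had 26.4 and 10.9 CPM with Rrp6 dsRNA in S3 cells, against 0.835, 0.983 and 0 CPM with GFP dsRNA, and 37.3 and 56.4 CPM with Rrp6 dsRNA in S2 cells, against 15 and 13.9 CPM with GFP dsRNA. The 0 comes from the shallowest GFP poly(A) library of S3 cells and allows up to 3.72 CPM. The part of the low read numbers in the size of the difference was not tested.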

How the results depend on the processing

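Counts of members called stayed within 1.5 times under RLE scaling, and under DESeq2 in the comparisons with GFP dsRNA. Without the depth class as replicate block the count was 0 in place of 3, 3 and 1 (Rrp6 in S3 RiboMinus and S2 poly(A), Csl4 in S2 poly(A)), 0 for every contrast of Rrp6 with Csl4 or Rrp40 dsRNA, and 0 for the Rrp6 response between lines. With no filter it was 1 for Rrp40 in S3 poly(A) (p53), 4 for Rrp6 against Rrp40 there and 3 for the Rrp6 response between lines. On its own libraries Rrp6 in S3 poly(A) gave 2, and Rrp40 in S2 poly(A) could not be fitted. Leaving out 1 library gave 1 to 3 (Rrp6, S3 RiboMinus), 2 to 6 (Rrp6, S3 poly(A)), 2 to 3 (Rrp6, S2 poly(A)), 1 to 2, 0 to 2 and 0 to 3 (Rrp6 against Csl4 in these sets), 1 to 3 and 0 to 4 (Rrp6 against Rrp40, both S3 sets), 2 to 4 (GFP, S3 minus S2) and 0 to 3 (Rrp6 response between lines). Signs turned round only for uncalled members. Without the block these were Diap1 (0.02 with Rrp40 in S2 poly(A); -0.02 with Rrp6 in S3 RiboMinus), p53 and Dronc (-0.16 and -0.29 with Rrp40 in S3 RiboMinus), with DESeq2 hid and Dronc in that comparison (0.06 and -0.14), and with no filter Diap1 with Rrp6 in S3 RiboMinus (-0.05). The causes were not tested.

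Fits without 1 library also turned signs of uncalled values, over these ranges. For Rrp6 in S2 poly(A) they were Drice -0.47 to 0.03. For Rrp40 in S2 poly(A) they were p53 -0.10 to 0.57, rpr -0.04 to 0.81, Dronc -0.60 to 0.23. For Csl4 in S2 poly(A) they were hid -0.06 to 0.65, rpr -0.63 to 0.63, Dronc -0.45 to 0.40. For Rrp40 in S3 poly(A) they were hid -4.95 to 0.71, Diap1 -0.16 to 0.57, Dronc -0.09 to 0.41. For Rrp6 in S3 RiboMinus they were Diap1 -0.20 to 0.22. For Rrp40 in S3 RiboMinus they were p53 -0.50 to 0.30, Diap1 -0.34 to 0.05, Dronc -0.90 to 0.16. For Csl4 in S3 RiboMinus they were p53 -0.06 to 1.11, Diap1 -0.04 to 0.33, Dronc -0.54 to 0.75. For the Rrp6 response between lines they were p53 -0.03 to 1.31, rpr -5.59 to 3.40. For the Rrp6 response between fractions they were p53 -1.16 to 0.18, hid -2.10 to 5.90. The single Rrp40 library of S2 poly(A) RNA and the low reads of hid and rpr in S3 cells limit what these fits can show.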
